A study of Mus musculus with 2 samples.

Results

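The 10 genes described here, of 31053 genes in the count tables, are markers of the states that T cells and natural killer (NK) cells pass through: Tcf7, Lef1, S1pr1, Il7r, Klf2, Tbx21, Eomes, Tox, Cd69 and Itgae. They were taken by symbol, and none was used to find or to name the cells. Their levels were read in 5 T cell classes and in NK cells sorted from glioma-bearing mouse brain, with and without depletion of CD169+ macrophages.

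Both groups were C57BL/6 male mice, 8 to 12 weeks old. CD169-DTR mice were heterozygotes in which 1 copy of Siglec1, the gene of CD169, was replaced by the human diphtheria toxin receptor, and WT mice were the controls without that allele. Every mouse, WT included, was given diphtheria toxin on days -1 and 4 relative to the intracranial injection of 100000 GL261 cells, a mouse glioma line. The toxin could act on any CD169+ cell of the host, not on tumor macrophages alone. On day 10, cells that were CD45.2+ and negative for propidium iodide were sorted, pooled from 3 mice per group and made into 1 droplet library each. Each group is thus 1 pooled library, so no test of the groups was possible, the spread between mice is unknown, and every interval below covers counting error only. The libraries came from different sequencing lanes according to their labels, so lane and group cannot be told apart.

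The WT library held 101808996 unique molecular identifiers (UMIs, each a counted RNA molecule) and the CD169-DTR library 84065489. Barcodes counted as cells where they had 1000 UMIs or more, no more than 17% of them mitochondrial. This kept 10107 WT and 7604 CD169-DTR cells, at a median of 7776 and 8099.5 UMIs, and 21 barcode sequences occurred in both. The T and NK clusters held 811 WT and 304 CD169-DTR cells, and their 10 leading genes held markers of their own class and of no other. Clustered again on their own, they still held a group led by C1qa that the markers named microglia (46 WT and 13 CD169-DTR cells). A group led by S100a9 held 45 WT and 2 CD169-DTR cells. Cells of both groups that passed the sorting below were kept. Cells were then sorted by UMIs of Cd3d, Cd3e, Cd3g, Trac, Ncr1, Klrb1c, Klre1, Foxp3, Trdc, Cd4, Cd8a and Cd8b1 into CD8 T cells (165 WT and 86 CD169-DTR cells), conventional CD4 T cells (65 and 41), Foxp3+ regulatory T cells (Treg, 54 and 15), γδ T cells (43 and 13), other T cells, which matched none of these (122 and 53), and NK cells (311 and 78).

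A naive or resting T cell keeps the transcription factors TCF1 (gene Tcf7) and LEF1 on, needs interleukin-7 through its receptor (Il7r), and leaves tissue for lymph and blood through the sphingosine-1-phosphate receptor S1PR1, whose gene is a target of the factor KLF2. On activation, CD69 binds S1PR1 and takes it off the cell surface, T-bet (Tbx21) and Eomes set the cytotoxic and interferon-γ programmes of CD8 T and NK cells, and TOX accompanies persistent stimulation. Cells that settle in tissue often carry CD69, and some also carry CD103 (Itgae), which binds E-cadherin. NK cells need T-bet and Eomes to mature.

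All 10 gene identifiers of the files were found in the GENCODE annotation of GRCm38. The naive and recirculation genes were Tcf7 (ENSMUSG00000000782, chr11:52252371-52283014, minus strand), Lef1 (ENSMUSG00000027985, chr3:131110471-131224356, plus strand), S1pr1 (ENSMUSG00000045092, chr3:115710433-115715072, minus strand), Il7r (ENSMUSG00000003882, chr15:9505788-9530176, minus strand) and Klf2 (ENSMUSG00000055148, chr8:72319033-72321656, plus strand). The effector factors were Tbx21 (ENSMUSG00000001444, chr11:97098071-97115331, minus strand) and Eomes (ENSMUSG00000032446, chr9:118478212-118486132, plus strand), with Tox (ENSMUSG00000041272, chr4:6686353-6991557, minus strand) beside them. The residence genes were Cd69 (ENSMUSG00000030156, chr6:129267325-129275436, minus strand) and Itgae (ENSMUSG00000005947, chr11:73090583-73147446, plus strand).

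The promoter of Lef1 is shown because Lef1 was called in CD8, conventional CD4 and other T cells. It is the RefSeq window chr3:131110047-131110296 on GRCm38.p6, read 5′ to 3′ on the plus strand up to a transcript start. Capitals mark CTTTG, the core letters of sites bound by TCF1 and LEF1.
Lef1: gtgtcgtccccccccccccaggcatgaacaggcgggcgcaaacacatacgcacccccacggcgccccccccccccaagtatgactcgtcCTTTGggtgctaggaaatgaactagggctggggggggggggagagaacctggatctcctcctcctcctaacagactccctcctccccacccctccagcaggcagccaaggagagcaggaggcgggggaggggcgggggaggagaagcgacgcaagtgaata
The CTTTG starts 161 bases before the transcript start. Searched on both strands, as CTTTG or CAAAG, this core was in 48.6% of the 32851 promoter windows of the table, so its presence is common. A match of letters is a description and not a bound site. Lef1 has 4 transcript starts in the table, and 6 of the 10 genes had an entry.

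Tcf7 was lower in NK cells than in CD8, conventional CD4 and other T cells, but WT Treg cells were lower still. Levels are given in CPM, the UMIs of a gene scaled by all UMIs of the class, and are compared for 1 gene at a time. Tcf7 stood at 118 CPM in WT and 184 CPM in CD169-DTR CD8 T cells (95% Poisson intervals 101 to 138 and 154 to 219), at 150 and 240 CPM in conventional CD4, at 187 and 117 CPM in γδ and at 180 and 257 CPM in other T cells. These 4 classes were not separated in order, since the intervals of neighbours overlapped. NK cells, at 54.6 and 55.4 CPM, lay below CD8, conventional CD4 and other T cells in both libraries, and Treg cells held 16 and 3 Tcf7 UMIs in all.

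The order of classes in Lef1 differed between the libraries. In CD169-DTR cells it stood at 198 CPM in other T, 183 CPM in conventional CD4 and 173 CPM in CD8 T cells, against 32.9 CPM in NK cells (19.8 to 51.3). In WT, NK cells stood at 38.5 CPM (30.5 to 48.0). Conventional CD4 T cells at 43.6 CPM (27.0 to 66.7) and Treg cells at 25.2 CPM (15.8 to 38.2) were not separated from them. Microglia, which should lack both genes, held Tcf7 at 0.393 and 0.153 CPM and Lef1 at 0.486 and 0.229 CPM in WT and CD169-DTR.

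**Figure D1:**
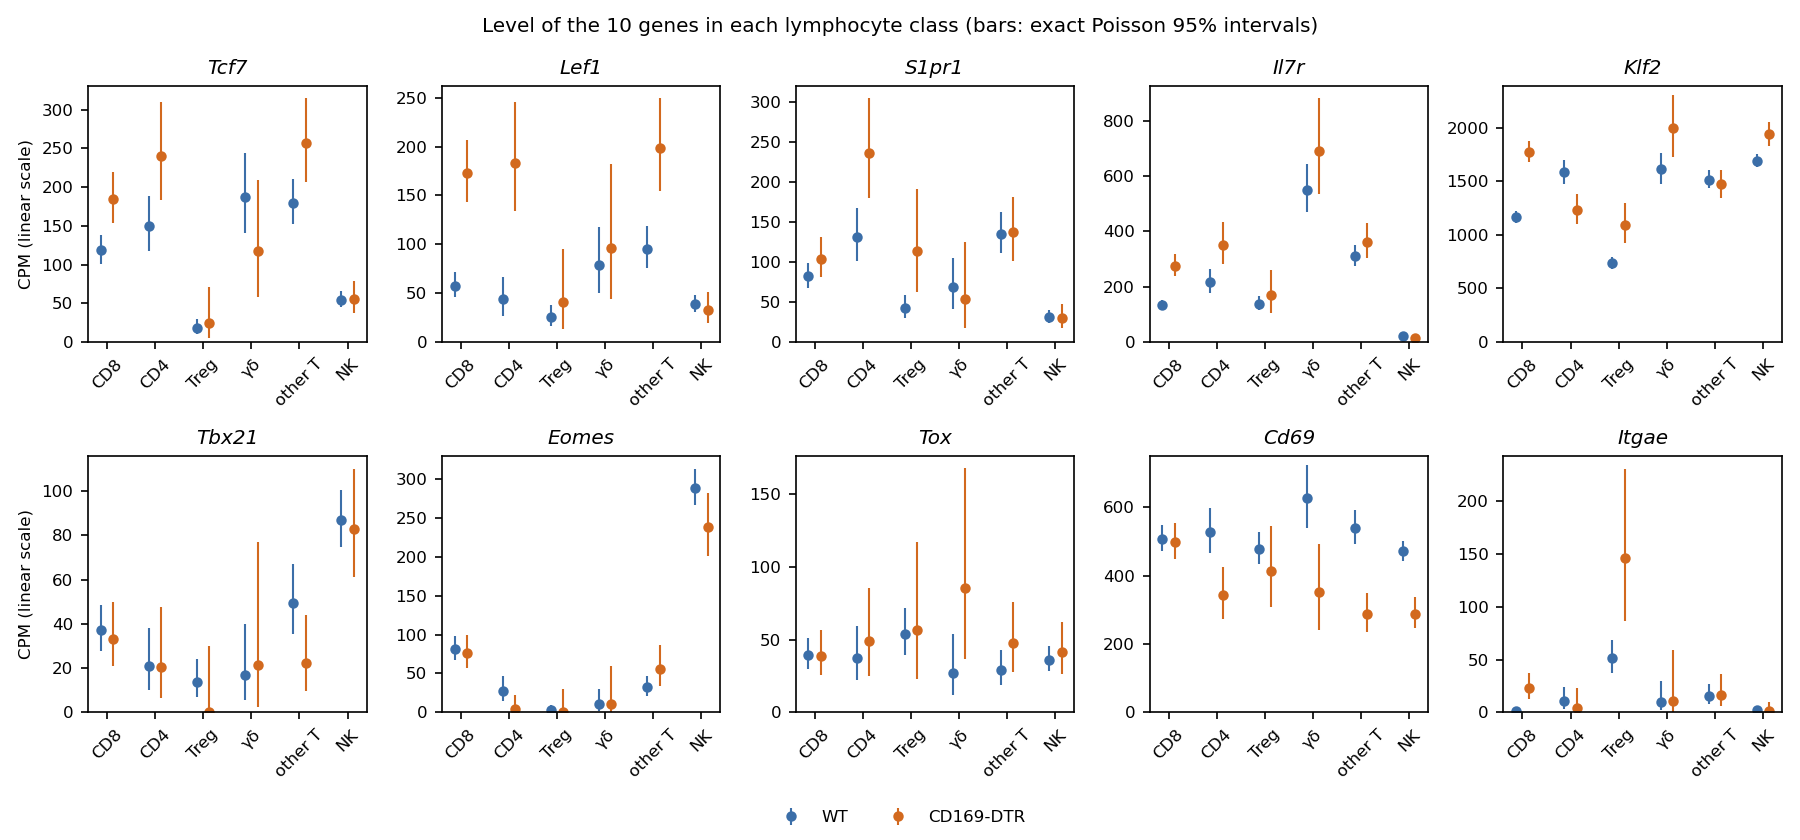
CPM of each gene (y axis, linear, a scale of its own per panel) in the 6 classes (x axis), with WT in blue and CD169-DTR in orange and exact Poisson 95% intervals as bars. Lef1 is at 57.7 CPM in WT and 173 CPM in CD169-DTR CD8 T cells, Eomes is highest in NK cells and Itgae in Treg cells.

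Il7r ran from γδ T cells down to NK cells. In WT it stood at 551 CPM in γδ (470 to 643), 311 CPM in other T, 218 CPM in conventional CD4, 138 CPM in Treg, 132 CPM in CD8 T and 22.9 CPM in NK cells. In CD169-DTR the same classes stood at 692, 363, 350, 171, 276 and 15.6 CPM. The NK value was close to that of microglia, at 17.4 CPM in WT and 19.2 CPM in CD169-DTR.

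S1pr1 was highest in conventional CD4 and other T cells, at 131 and 135 CPM in WT and 236 and 137 CPM in CD169-DTR. In NK cells it stood at 30.7 and 29.4 CPM, no higher than the 31.6 and 36.4 CPM of microglia. Klf2, which is widely expressed in blood and vascular cells, was lowest in Treg cells, at 733 CPM in WT (678 to 792) and 1097 CPM in CD169-DTR (919.5 to 1298), although in CD169-DTR the interval of conventional CD4 T cells (1099 to 1381) overlapped it. It was 1694 and 1941 CPM in NK cells.

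Tbx21 and Eomes were led by NK cells in both libraries. Tbx21 stood at 86.8 CPM in WT (74.6 to 101) and 83.0 CPM in CD169-DTR (61.2 to 110) NK cells, against 37.0 and 33.1 CPM in CD8 and 49.4 and 22.4 CPM in other T cells. Eomes stood at 289 and 239 CPM in NK cells, with CD8 T cells next in both libraries at 81.2 and 76.3 CPM, and the NK intervals lay above those of CD8 T cells. Conventional CD4 T cells held 13 and 1 Eomes UMIs, and 11 of the 13 came from 1 cell.

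Tox, at 27.2 to 53.9 CPM in the 6 WT classes and 38.9 to 85.2 CPM in the CD169-DTR classes, was not separated between neighbouring classes. Cd69 lay between 471 CPM (NK) and 626 CPM (γδ) in WT, and between 288 CPM (other T) and 499 CPM (CD8) in CD169-DTR. Itgae was concentrated in Treg cells, at 51.6 CPM in WT (37.6 to 69.0) and 146 CPM in CD169-DTR (86.7 to 231). Every other class was at 23.0 CPM or less, and NK cells, at 1.95 and 1.73 CPM, were at the microglial level of 2.41 and 2.66 CPM.

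For each class the WT and CD169-DTR libraries were compared as the log2 ratio of CPM, WT over CD169-DTR, with an exact conditional 95% interval. A gene was called when it had at least 30 UMIs over both libraries, differed at least 2-fold and had an interval that left out 0. Calls of single libraries describe those libraries.

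In CD8 T cells all 5 naive and recirculation genes were lower in WT, 2 of them past the call, while the intervals of Tbx21, Eomes, Tox and Cd69 included 0. Lef1 was at 57.7 CPM in WT (81 UMIs in 49 cells) and 173 CPM in CD169-DTR (120 UMIs in 47 cells), a log2 ratio of -1.58 (95% interval -2.01 to -1.16). Il7r was at 132 and 276 CPM, a log2 ratio of -1.06 (-1.36 to -0.76). Neither rested on a single cell, since without the richest cell of each library the log2 ratios were -1.57 and -1.09. With each cell thinned to 3000 UMIs Il7r was at -0.59, short of the call.

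The other 3 did not reach 2-fold. Tcf7, at 118 and 184 CPM, had a log2 ratio of -0.64 (-0.98 to -0.30), and Klf2, at 1166 and 1777 CPM, one of -0.61 (-0.72 to -0.50). The lower Klf2 of WT was not particular to lymphocytes, and outside them Klf2 went both ways. It was lower in WT in microglia (log2 ratio -0.45, -0.47 to -0.43) and granulocytes (1524 and 2187 CPM). It was higher in WT in macrophages (0.08, 0.03 to 0.14) and Cd209a-led dendritic cells (670 and 555 CPM). S1pr1, at 81.9 and 104 CPM, had a log2 ratio of -0.34 with an interval (-0.78 to 0.11) that included 0. Tbx21 (37.0 and 33.1 CPM), Eomes (81.2 and 76.3 CPM), Tox (39.2 and 38.9 CPM) and Cd69 (508 and 499 CPM) had log2 ratios of 0.16, 0.09, 0.01 and 0.02. Over the other settings tried, those of Tbx21 ran from -0.80 to 1.48 and those of Eomes from -0.34 to 0.81, so neither direction was settled. Itgae was too rare to be compared, with 2 UMIs in WT and 16 in CD169-DTR, a log2 ratio of -4.02 with a counting interval of -7.18 to -1.93.

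Of 9 members with enough UMIs in CD8 T cells, 2 were called higher in CD169-DTR and 0 in WT. Over all 6312 genes compared there, 1.35% were called higher in CD169-DTR and 4.17% in WT. The median log2 ratio was -0.34 over the 9 members and -0.64 over the 5 naive genes, beside 0.09 over all genes. With only the cells of subclusters that carry a T cell name, the Lef1 log2 ratio was -0.83.

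**Figure D2:**
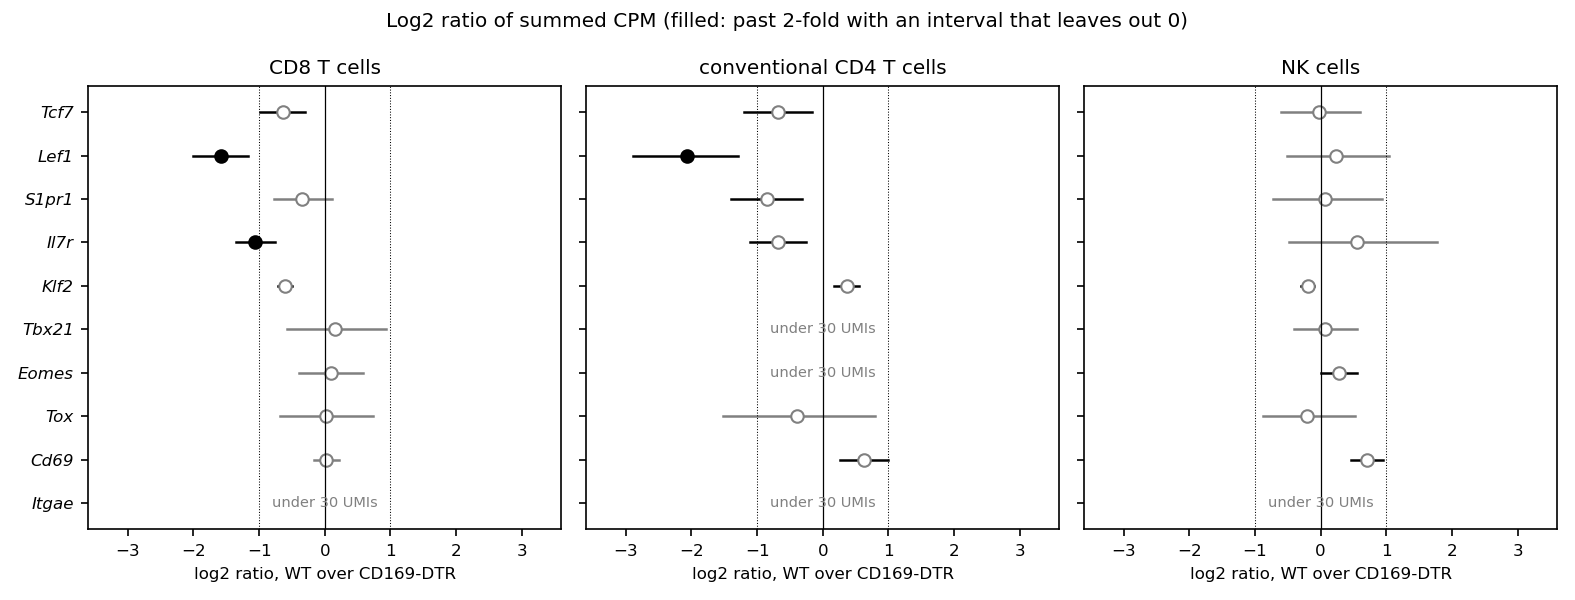
Log2 ratio of WT over CD169-DTR (x axis) for each gene (y axis) in CD8, conventional CD4 and NK cells, with exact conditional 95% intervals as lines, filled points for called genes and dotted lines at 2-fold. Lef1 in CD8 (-1.58) and conventional CD4 T cells (-2.07) and Il7r in CD8 T cells (-1.06) are called, and no gene is called in NK cells.

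Conventional CD4 T cells shared the Lef1 difference but not the Cd69 values. Lef1 was at 43.6 CPM in WT (21 UMIs in 14 of 65 cells) and 183 CPM in CD169-DTR (45 UMIs in 21 of 41 cells), a log2 ratio of -2.07 (-2.89 to -1.29). Tcf7, at 150 and 240 CPM, Il7r, at 218 and 350 CPM, and S1pr1, at 131 and 236 CPM, had log2 ratios of -0.68, -0.68 and -0.85, with intervals below 0 and under 2-fold.

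Klf2 and Cd69 lay on the other side in these CD4 cells. Klf2 was at 1587 CPM in WT and 1234 CPM in CD169-DTR, a log2 ratio of 0.36 (0.17 to 0.56). Cd69 was at 528 and 342 CPM, 0.63 higher in WT on the log2 scale (0.26 to 1.00), and 25 of the 84 CD169-DTR UMIs came from 1 cell. Without the richest cell of each library the Cd69 log2 ratio was 0.90 (0.48 to 1.34). Of 7 members compared, 1 was called higher in CD169-DTR and 0 in WT, where 1.65% and 6.66% of 3394 genes were called. Tox had 18 and 12 UMIs, Tbx21 10 and 5, and Itgae 5 and 1. With only the cells of named subclusters, 14 in WT and 13 in CD169-DTR, Cd69, S1pr1 and Klf2 took the other sign, at -1.42, 1.07 and -0.76, and with each cell thinned to 3000 UMIs S1pr1 was at 0.27.

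Among other T cells, which had a T cell receptor complex but no Cd4, Cd8a or Cd8b1 UMI that placed them, Lef1 again stood lower in WT, at 95.2 against 198 CPM (log2 ratio -1.06, -1.54 to -0.58). Tcf7, at 180 and 257 CPM, had a log2 ratio of -0.52 (-0.90 to -0.13). Tbx21 went the other way, at 49.4 CPM in WT (41 UMIs in 28 cells) and 22.4 CPM in CD169-DTR (8 UMIs in 5 cells), a log2 ratio of 1.14 (0.03 to 2.45) that was 0.57 with thinned cells. Cd69, at 540 and 288 CPM, had a log2 ratio of 0.91 (0.60 to 1.23). Eomes, the other effector factor, was at 32.5 and 55.9 CPM with an interval that included 0 (-1.67 to 0.13), as did those of S1pr1 (135 and 137 CPM), Il7r (311 and 363 CPM), Klf2 (1517 and 1472 CPM) and Tox (28.9 and 47.5 CPM). Of 9 members compared, 1 was called in each direction, where 4.47% of 4741 genes were called higher in WT and 1.35% in CD169-DTR.

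In Treg cells S1pr1 and Itgae were called and Klf2 had an interval that left out 0, but the class lay in different subclusters in each library: the one led by Penk held 25 of 54 WT and 14 of 15 CD169-DTR Treg cells. S1pr1 was at 42.4 CPM in WT (37 UMIs in 20 of 54 cells) and 114 CPM in CD169-DTR (14 UMIs in 9 of 15 cells). Its log2 ratio was -1.42 (-2.34 to -0.42). Itgae was at 51.6 and 146 CPM, a log2 ratio of -1.50 (-2.32 to -0.63), but 8 of its 18 CD169-DTR UMIs came from 1 cell. Without the richest cell of each library the Itgae log2 ratio was -1.03 (-2.06 to 0.14). Klf2, at 733 and 1097 CPM, had a log2 ratio of -0.58 (-0.85 to -0.30) that became -0.28 (-0.59 to 0.04) in the same way. Il7r (138 and 171 CPM), Tox (53.9 and 56.9 CPM) and Cd69 (478 and 414 CPM) had intervals that included 0. For Cd69, 18 of the 51 CD169-DTR UMIs came from 1 cell. Without the richest cell of each library its log2 ratio was 0.66 (0.14 to 1.22), and over the other settings tried it ran from -0.25 to 0.54. Of 6 members compared, 2 were called higher in CD169-DTR and 0 in WT, where 4.28% and 6.53% of 4397 genes were called. The WT Treg cells were deeper, at a median of 10064 against 6222 UMIs, and the list of dividing-cell genes stood higher there, with 9 of 10 genes called and a median log2 ratio of 3.61. Without the dividing subcluster the log2 ratios of S1pr1 and Itgae were -1.59 and -1.39. Without the cells that held UMIs of both the microglia and the macrophage list, 32 of 54 in WT and 7 of 15 in CD169-DTR, that of S1pr1 was -0.27.

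No member was called in γδ T cells, where 5 could be compared. Cd69 was at 626 CPM in WT and 351 CPM in CD169-DTR, a log2 ratio of 0.83 (0.29 to 1.41). Klf2, at 1616 and 2002 CPM, had a log2 ratio of -0.31 (-0.56 to -0.06) that was -0.08 (-0.37 to 0.22) without the richest cell of each library. Tcf7 (187 and 117 CPM), Lef1 (78.3 and 95.8 CPM) and Il7r (551 and 692 CPM) had intervals that included 0. Over 1825 genes, 6.08% were called higher in WT and 2.36% in CD169-DTR.

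Of the 5 naive genes, Klf2 alone had an interval that left out 0 in NK cells, at 1694 CPM in WT and 1941 CPM in CD169-DTR, a log2 ratio of -0.20 (-0.29 to -0.10). Tcf7 was at 54.6 CPM in WT and 55.4 CPM in CD169-DTR, a log2 ratio of -0.02 (-0.60 to 0.60), and Lef1 was at 38.5 and 32.9 CPM, a log2 ratio of 0.23 (-0.51 to 1.04). S1pr1 (30.7 and 29.4 CPM) and Il7r (22.9 and 15.6 CPM) had log2 ratios of 0.06 and 0.56 with intervals that included 0. Of the 9 CD169-DTR Il7r UMIs 6 came from 1 cell, and without the richest cell of each library 42 and 3 UMIs were left, a log2 ratio of 1.96 (0.31 to 4.29). The median of the 5 naive genes was 0.06, beside 0.00 over all 7227 genes compared.

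In NK cells Cd69 was at 471 CPM in WT (965 UMIs in 199 of 311 cells) and 289 CPM in CD169-DTR (167 UMIs in 37 of 78 cells), a log2 ratio of 0.70 (0.47 to 0.95). A single CD169-DTR cell held 30 of the 167 UMIs, and without the richest cell of each library the log2 ratio was 0.94 (0.68 to 1.21). Eomes, at 289 and 239 CPM, had a log2 ratio of 0.27 (0.01 to 0.55), and Tbx21, at 86.8 and 83.0 CPM, one of 0.06 (-0.40 to 0.56). Tox was at 36.1 and 41.5 CPM. Of the 9 members, 0 were called in either direction, where 3.21% of genes were called higher in WT and 1.09% in CD169-DTR.

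The higher Cd69 of WT was not particular to lymphocytes. In macrophages it was at 199 CPM in WT and 103 CPM in CD169-DTR, a log2 ratio of 0.95 (0.81 to 1.10), and in microglia at 55.0 and 38.2 CPM, a log2 ratio of 0.53 (0.44 to 0.61). It was not called in either, where 1.75% of macrophage and 1.06% of microglia genes were called higher in WT and 1.76% and 0.98% in CD169-DTR. Early response genes that tissue handling can induce, 16 in all, had 0 calls in CD8 and NK cells, with median log2 ratios of -0.03 and 0.13. Ier3 was called higher in WT in conventional CD4 T cells, where the median was 0.12, and in Treg cells 2 were called higher in WT and 1 in CD169-DTR. In microglia 15 of the 16 were higher in CD169-DTR, with a median of -0.41 and 0 calls. Genes of the macrophage list were more abundant in the WT lymphocytes. The 10 genes summed to 2902 CPM in WT and 1439 CPM in CD169-DTR CD8 T cells. In conventional CD4 T cells they summed to 858 and 631 CPM, and in NK cells to 1461 and 779 CPM. Of those with enough UMIs, 3 of 5, 1 of 4 and 3 of 6 were called, all higher in WT. The 9 microglia genes summed to 1438 and 1426 CPM, 1361 and 1120 CPM, and 2177 and 1616 CPM in the same classes. The macrophage list holds Ly6c2, which was also among the 10 leading genes of a T cell subcluster led by Cd8a. It also holds Ccr2, found in 20 of 65 WT and 3 of 41 CD169-DTR conventional CD4 T cells. The macrophage sums thus need not be RNA of other cells. The part of other cells' RNA in the Cd69 ratios was not tested. Many cells held at least 2 UMIs of each list. They were 72 of 165 WT and 36 of 86 CD169-DTR CD8 T cells and 19 of 65 and 5 of 41 conventional CD4 T cells. In NK cells they were 106 of 311 and 22 of 78. Without all of these cells the log2 ratio of Cd69 was 0.60 in CD8, 1.37 in conventional CD4 and 1.27 in NK cells. Lymphocytes that hold Ly6c2 or Ccr2 of their own can be among the cells removed. Free RNA was estimated at 5.84% of WT and 2.38% of CD169-DTR lymphocyte UMIs, which would bring 5.14 and 1.06 CPM of Cd69.

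Shares of cells with a UMI were compared after every cell had been thinned to 3000 UMIs, which left out 2 to 33 shallower cells of a WT class and 0 to 5 of a CD169-DTR class. Lef1 was detected in 26 of 156 WT CD8 T cells (16.7%, exact Clopper-Pearson 95% interval 11.2 to 23.5) and in 35 of 83 CD169-DTR CD8 T cells (42.2%, 31.4 to 53.5). In conventional CD4 T cells the shares were 8.77% (5 of 57) and 30.6% (11 of 36), and over all T cells 18.5% (75 of 406) and 37.1% (73 of 197). Microglia gave 0.0657% and 0.0382%, so these shares were far above those of a cell that should lack the gene. Before thinning, Lef1 was in 29.7% of WT and 54.7% of CD169-DTR CD8 T cells, at median depths of 7215 and 7559.5 UMIs.

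Il7r was detected in 39 of 156 WT CD8 T cells (18.4% to 32.6%) and in 32 of 83 CD169-DTR CD8 T cells (28.1% to 49.9%), intervals that overlapped, beside 6.20% and 6.68% in microglia. Tcf7 was in 31.4% and 38.6% of CD8 T cells, also with overlapping intervals. Cd69 was in 56.4% and 56.6% of CD8 T cells, in 50.9% and 33.3% of conventional CD4 T cells and in 52.5% (46.5 to 58.5) and 33.3% (22.9 to 45.2) of NK cells, beside 7.38% and 5.44% of microglia. Eomes was in 51.1% and 44.0% and Tbx21 in 23.7% and 16.0% of NK cells, also with overlapping intervals. Klf2, found in 66.0% and 73.5% of microglia, was too widespread for a share to separate the classes.

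The genes were then combined within single cells. On the 5 naive genes together, 41.1% of WT (36.3 to 46.1) and 49.7% of CD169-DTR T cells (42.6 to 56.9) held a naive UMI and no Cd69 or Itgae, and 50.5% and 46.2% held both kinds. Since Klf2 was in 78.8% of WT and 84.8% of CD169-DTR T cells, a second grouping on Tcf7, Lef1 and S1pr1 was added after the data had been seen. By that grouping, 27.1% of WT T cells (22.8 to 31.7) and 39.1% of CD169-DTR T cells (32.2 to 46.3) held 1 of the 3 genes and no Cd69, a resting pattern. In conventional CD4 T cells these shares were 29.8% and 50.0%, in other T cells 34.0% and 51.0%, and in CD8 T cells 23.7% and 28.9%, beside 8.52% and 9.35% in microglia.

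The reverse pattern, Cd69 without Tcf7, Lef1 or S1pr1, was found in 38.8% of WT NK cells (33.1 to 44.9) and 22.7% of CD169-DTR NK cells (13.8 to 33.8). In CD8 T cells it was found in 29.5% and 21.7%, and over all T cells in 24.1% and 19.3%. A UMI of Tbx21 or Eomes was found in 63.3% of WT NK cells (57.3 to 69.0) and 52.0% of CD169-DTR NK cells (40.2 to 63.7), and in 24.4% and 27.7% of CD8 T cells. Many T cells thus held a naive gene and Cd69 together, 30.5% in WT and 25.9% in CD169-DTR.

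**Figure D3:**
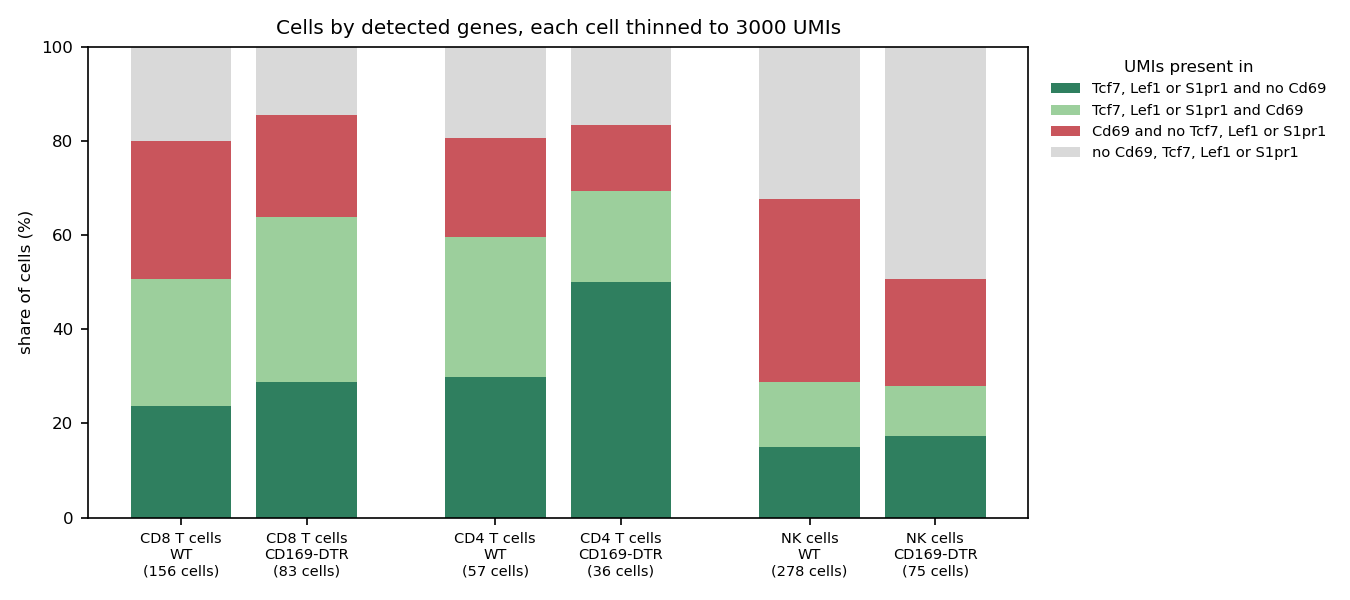
Share of cells (y axis, percent) in each of 4 detection states, after thinning to 3000 UMIs, for CD8, conventional CD4 and NK cells of each library (x axis, with cell numbers). The dark green share, a Tcf7, Lef1 or S1pr1 UMI without Cd69, is 29.8% in WT and 50.0% in CD169-DTR conventional CD4 T cells, and the red share, Cd69 alone, is 38.8% in WT and 22.7% in CD169-DTR NK cells.

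Apart from Tcf7 with Lef1, the pairs given here had close shares or wide intervals at this depth. Cd69 was found in 55.4% of WT T cells with an S1pr1 UMI and 54.4% of those without, and in 44.0% and 45.6% of CD169-DTR T cells. For Klf2 the shares with Cd69 were 54.7% and 54.7% in WT and 44.9% and 46.7% in CD169-DTR. Lef1 was found in 38 of 80 CD169-DTR T cells with a Tcf7 UMI (47.5%, 36.2 to 59.0) and 35 of 117 without (29.9%, 21.8 to 39.1), and in WT in 22.1% and 16.5%, with overlapping intervals in both. Tox was found in 15 of 140 WT T cells with Tcf7 and 28 of 266 without, and in 12.5% and 11.1% of CD169-DTR T cells. In NK cells Eomes was found in 48.5% of the WT cells with Tbx21 and 51.9% of those without, and in 50.0% and 42.9% of the CD169-DTR cells.

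The T and NK cells were also clustered again without the 10 genes, and the differences were read within the subclusters. Subclusters are called here by their leading gene. The Igfbp4-led one, with 145 WT and 76 CD169-DTR cells, held 36 and 25 CD8 T cells and 41 and 26 conventional CD4 T cells. It kept no cell type name, because its 10 leading genes held Ccr7, a marker on the dendritic cell list, and no marker of the T cell list. Its leading gene was rare in WT, with 4 Igfbp4 UMIs in all 165 WT and 66 in all 86 CD169-DTR CD8 T cells. Over the whole subcluster Tbx21 had 24 UMIs in WT and 2 in CD169-DTR, and Eomes 24 and 4. Its cells were thus not matched between the libraries, and ratios within it may include differences in cell make-up.

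Within the Igfbp4-led subcluster, where Tcf7 was high in both libraries, Lef1 and Il7r still differed in CD8 T cells. Lef1 was at 125 CPM in WT and 398 CPM in CD169-DTR, a log2 ratio of -1.68 (-2.40 to -1.00), and Il7r at 359 and 677 CPM, one of -0.91 (-1.36 to -0.48). Tcf7, at 249 and 353 CPM, and Klf2, at 1990 and 2082 CPM, had intervals that included 0 (-1.07 to 0.06 and -0.27 to 0.14). Cd69, level over all CD8 T cells, was at 444 and 239 CPM here, a log2 ratio of 0.89 (0.35 to 1.46). Eomes had 19 UMIs in WT and 1 in CD169-DTR here (4.06, 1.40 to 9.43), and Itgae had 1 and 11 (-3.65, -9.08 to -0.87). The conventional CD4 T cells of this subcluster had Lef1 at 79.6 and 292 CPM (log2 ratio -1.87), Klf2 at 2315 and 1337 CPM (0.79) and Cd69 at 780 and 254 CPM (1.62), each with an interval that left out 0.

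The CD8 T cells of the Cd8a-led subcluster, 99 WT and 54 CD169-DTR cells, differed less in Lef1, at 52.9 and 94.5 CPM, a log2 ratio of -0.84 (-1.50 to -0.17). Il7r was at 73.6 and 154 CPM, a log2 ratio of -1.06 (-1.60 to -0.53), and Klf2 at 1134 and 1619 CPM, one of -0.51 (-0.66 to -0.37). Cd69 was level there, at 660 and 650 CPM (0.02), as it was over all CD8 T cells. Eomes, at 98.1 and 109 CPM, did not differ beyond counting error. In the 253 WT and 70 CD169-DTR NK cells of the Klra4-led subcluster, Eomes was at 337 and 242 CPM (log2 ratio 0.48, 0.19 to 0.78) and Cd69 at 471 and 311 CPM (0.60, 0.35 to 0.86).

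**Figure D4:**
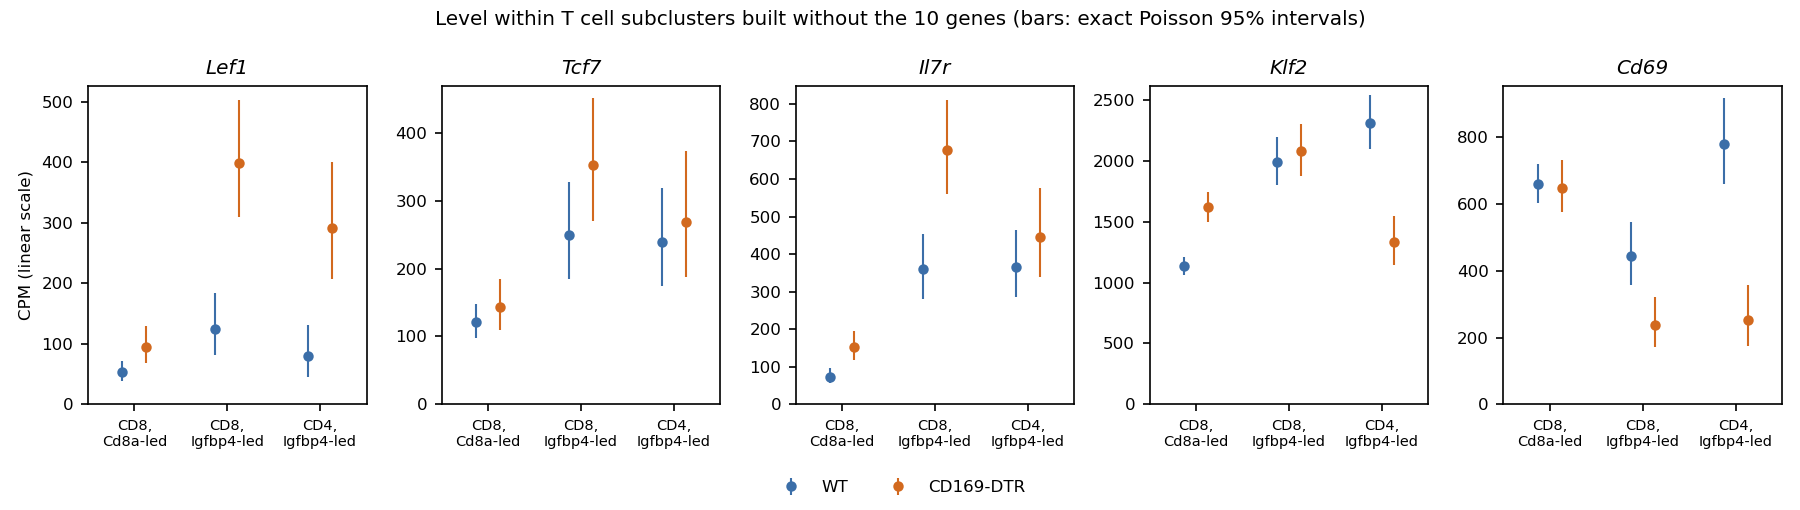
CPM (y axis, linear) of 5 genes in CD8 T cells of the Cd8a-led and Igfbp4-led subclusters and in conventional CD4 T cells of the Igfbp4-led subcluster (x axis), WT in blue and CD169-DTR in orange, with exact Poisson 95% intervals as bars. Lef1 is lower in WT in all 3 sets, while Cd69 is level in the Cd8a-led set (660 and 650 CPM) and higher in WT in both Igfbp4-led sets.

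Other genes of the same states, from lists of 13 to 15 genes, were compared in the same way. Of the naive genes besides the members, 4 of 15 were called higher in CD169-DTR in CD8 T cells and 0 in WT, with a median log2 ratio of -0.70. Ccr7, the receptor that guides naive T cells to lymph nodes, was at 59.1 and 207 CPM (log2 ratio -1.81), and Bach2, a repressor of effector genes, at 9.97 and 28.8 CPM (-1.53). Igfbp4, a binder of insulin-like growth factors, had 4 UMIs in 3 of 165 WT and 66 UMIs in 16 of 86 CD169-DTR CD8 T cells, a log2 ratio of -5.06 (-6.98 to -3.64). In conventional CD4 T cells 4 of 12 were called higher in CD169-DTR, with Igfbp4 at 12.5 and 224 CPM and Satb1, a chromatin organiser of T cells, at 81.0 and 297 CPM (-1.88), while Ccr7 was at 239 and 171 CPM (0.48, -0.04 to 1.03). In NK cells 1 of 12 was called in each direction and the median was -0.05.

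Effector genes besides Tbx21 and Eomes were higher in WT CD8 T cells for 10 of 12 compared, 2 of them called, with a median log2 ratio of 0.44. Gzma, a granule protease, was at 165 and 47.5 CPM (1.80, 1.27 to 2.37) and Ifng, the gene of interferon-γ, with 273 and 66 UMIs (1.03, 0.64 to 1.44). In other T cells 4 of 10 were called higher in WT, among them Gzmb at 710 and 237 CPM (1.58) and Zeb2, a factor of terminal effector cells, at 157 and 55.9 CPM (1.49). In conventional CD4 T cells Ifng stood at 307 and 1800 CPM, but 409 of the 442 CD169-DTR UMIs came from 1 cell. In NK cells 2 of 15 were called, both higher in CD169-DTR: Klrg1, a receptor of mature NK cells, at 31.7 and 84.8 CPM (-1.42), and S1pr5, which lets NK cells leave tissue, at 15.6 and 51.9 CPM (-1.73). Klrg1 and Gzma are named in this paragraph outside the naming rule and were chosen after their values were seen, as were Gzmb and Zeb2.

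The list of exhaustion genes besides Tox had 1 of 11 genes called in CD8 T cells, higher in WT, with a median log2 ratio of 0.19. The list of residence genes besides Cd69 and Itgae had 3 of 11 called there, 2 higher in WT and 1 in CD169-DTR, with a median of 0.09. In NK cells Cxcr6, a chemokine receptor of resident lymphocytes, was at 18.1 and 57.1 CPM (log2 ratio -1.66), with 14 of its 33 CD169-DTR UMIs in 1 cell. In conventional CD4 T cells Xcl1, a chemokine that attracts cross-presenting dendritic cells, had 50 UMIs in 6 WT cells and 0 in CD169-DTR, which makes it at least 8.50-fold higher in WT against a floor of 3 UMIs.

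Outside T and NK cells the 10 genes split into restricted and widespread members. T and NK cells held 90.3% of all Eomes UMIs of the kept WT cells, 86.9% of Tbx21, 79.6% of Tox and 60.4% of Tcf7, and in CD169-DTR 89.1%, 81.9%, 82.6% and 64.4%. They held only 18.8% and 20.7% of Lef1 and 8.99% and 3.78% of Klf2. Tcf7 was not confined to T and NK cells, at 49.3 and 26.1 CPM in Ccr7-led dendritic cells and 45.7 and 40.5 CPM in endothelial cells. Endothelial cells held 211 of the 943 Tcf7 UMIs in WT and 131 of the 505 in CD169-DTR. They also held 1201 of the 1626 Lef1 UMIs in WT and 934 of the 1302 in CD169-DTR. Lef1 was at 260 CPM (246 to 275) and 289 CPM (271 to 308) there, S1pr1, which keeps vessels tight, at 320 and 317 CPM, and Klf2, a flow-induced factor, at 2448 and 2666 CPM. Itgae was at 212 and 222 CPM in Xcr1-led dendritic cells, above its level in Treg cells, and did not differ there beyond counting error.

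**Figure D5:**
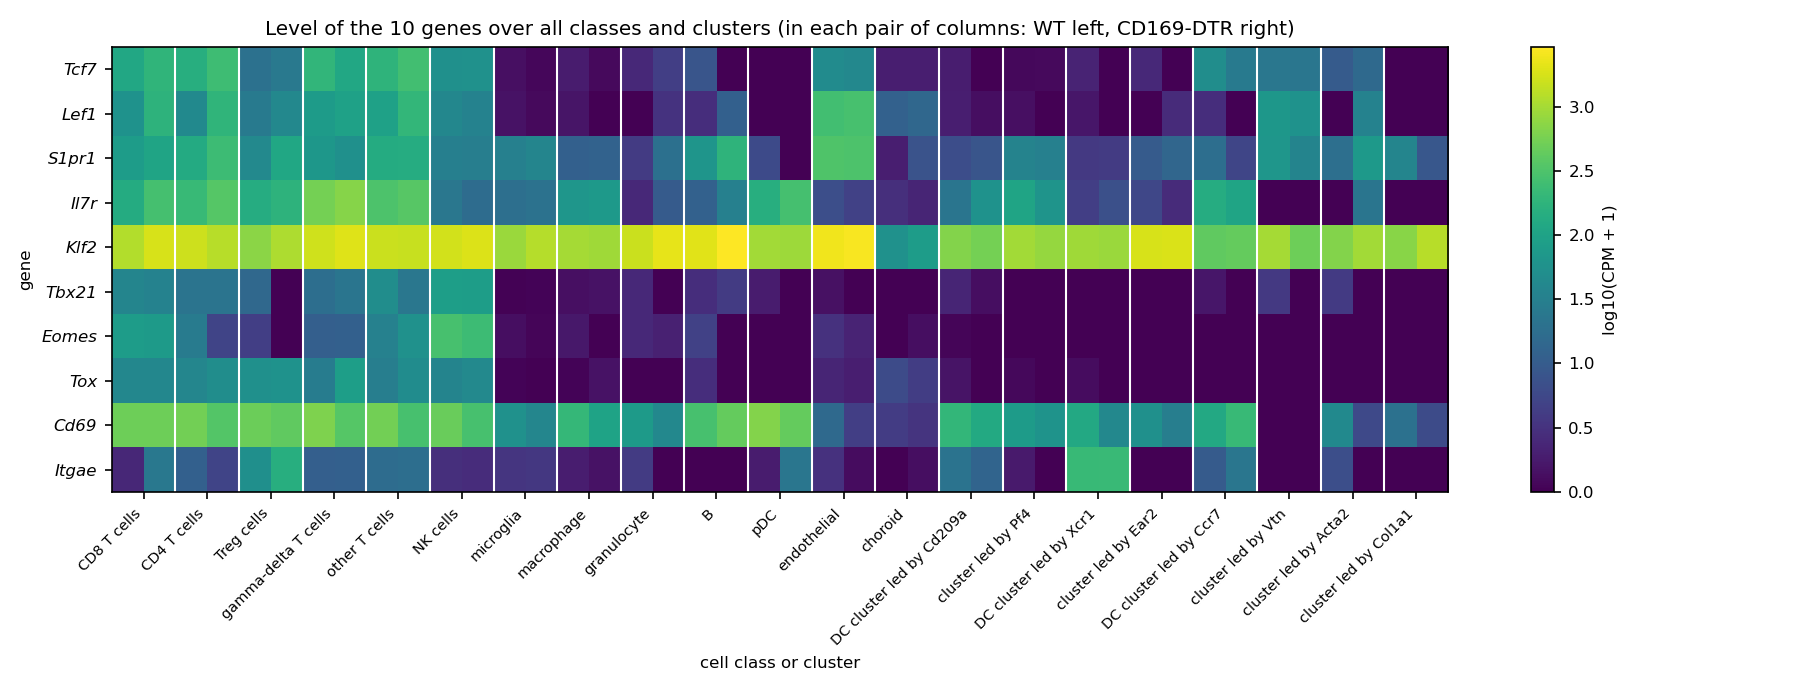
Level of each gene (rows, color as log10 of CPM + 1) in lymphocyte classes and in all other classes and clusters with at least 10 cells in each library (columns, WT left and CD169-DTR right in each pair). Tbx21, Eomes and Tox reach their highest levels in T and NK columns, Lef1, S1pr1 and Klf2 are also high in endothelial cells (260, 320 and 2448 CPM in WT), and Itgae is at 212 and 222 CPM in Xcr1-led dendritic cells.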

How the data were processed

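Droplet libraries of leukocytes sorted from glioma-bearing brain, 1 WT and 1 CD169-DTR, were read from the deposited tables. These hold raw UMI counts per gene and barcode of all barcodes. The authors made these counts from the single cell 3′ libraries with Cell Ranger on mm10, according to the submitters' processing notes, and no normalization is in them. The 10 genes and the gene lists were chosen with earlier results of these data known.

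Cells were barcodes of 1000 or more UMIs with mitochondrial UMIs making up no more than 17% (10107 WT and 7604 CD169-DTR, medians 7776 and 8099.5 UMIs). Counts were log-normalised to 10000 per cell, integrated on 50 dimensions from 2000 variable features without the 10 genes, and clustered on 30 dimensions at resolution 1 (Seurat 5.3.0, R 4.3.3; scipy 1.17.1, numpy 2.4.6 and pandas 2.3.3 in Python 3.11.15, and scanpy 1.11.5 for Scrublet). Clusters were named from marker lists, each name needing 3 detected markers. The lymphocytes of the T and NK clusters were reclustered with 20 dimensions and a resolution of 0.5. Within them a T cell had at least 2 UMIs of Cd3d, Cd3e, Cd3g and Trac and no Ncr1, and an NK cell at least 2 of Ncr1, Klrb1c and Klre1 and at most 1 T cell UMI. Treg cells had Foxp3, γδ T cells Trdc without Trac, Cd4 or Cd8b1, CD8 T cells Cd8a or Cd8b1 without Cd4, and conventional CD4 T cells Cd4 without Cd8a or Cd8b1. Doublets were kept, and removal of the highest doublet scores was an alternative. It took out 103 of 760 WT and 23 of 286 CD169-DTR cells of the T and NK classes.

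UMIs were summed per class and library and given as CPM with exact Poisson intervals, as log2 ratios with exact conditional intervals, and as shares of cells with exact Clopper-Pearson intervals after thinning to 3000 UMIs, all at 95%. Intervals and floors (3 UMIs) cover counting error only. No test was run, since each group has 1 library. Free RNA was estimated from barcodes with 10 to 100 UMIs. Named genes were the members and, from the lists, up to 3 called genes highest and 3 lowest by log2 ratio in a class. The genes most alike in pattern were taken by Pearson correlation of log2(CPM + 10). The calculations were tested on simulated data. Alternatives covered the cell minimum, clustering, doublets, cells with myeloid UMIs, weights and thinning depth. Values of some single genes are not reported here.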

Additional observations from a re-analysis of the deposited data

Results flagged for a closer look

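Klf2 stood on opposite sides in different lymphocyte classes. As a log2 ratio of the WT level to the CD169-DTR level it was at 0.36 in conventional CD4 T cells, against -0.61 in CD8 T cells, -0.58 in Treg cells, -0.31 in γδ T cells and -0.20 in NK cells, each with an interval that left out 0. The difference between classes was not tested, since each class has 1 library per group. The conventional CD4 value was -0.76 with only the cells of named subclusters, and the γδ value was 0.12 with the same cells and 0.08 with equal weight per cell.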

How the results depend on the processing

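No paired analysis was possible because each group has 1 library, and for the same reason no replicate could be left out. Of 78 values under other settings for the naive-gene median and Cd69 in CD8, conventional CD4 and NK cells, 71 kept the sign of the reported value. For Cd69 the interval used was its counting interval. For the naive-gene median it ran from the median lower to the median upper limit of the single genes, which is not a counting interval of the median. By these intervals, 70 stayed within, 7 moved outside, and 1 was a value whose interval left out 0 and that took the other sign. With only the cells of named subclusters, Cd69 was -0.21 in CD8 T cells and -1.42 in conventional CD4 T cells, the naive-gene median in conventional CD4 T cells was -1.27, and S1pr1 and Klf2 in conventional CD4 T cells and Klf2 in γδ T cells were 1.07, -0.76 and 0.12. The Igfbp4-led subcluster has no name and its cells are absent from that setting. Without the many cells that held UMIs of both the microglia and the macrophage list, counted above, Cd69 was 0.60 in CD8, 1.37 in conventional CD4 and 1.27 in NK cells. With equal weight per cell, Cd69 in conventional CD4 T cells was 1.13 and Klf2 in γδ T cells was 0.081. With thinned cells, Cd69 and S1pr1 in conventional CD4 T cells were 1.09 and 0.27. Alternatives chosen after seeing the data gave 16 of 18 such values within the interval. Without the dividing subcluster, the naive-gene median in CD8 T cells was -0.46 and Cd69 in conventional CD4 T cells 1.06. Over all alternatives, Lef1 lay between -1.76 and -0.83 in CD8, -2.36 and -1.27 in conventional CD4 and -1.30 and -0.79 in other T cells, and Cd69 between 0.61 and 1.27 in NK cells. Il7r in CD8 T cells lay between -1.18 and -0.59 and Tbx21 in other T cells between 0.57 and 1.66. In Treg cells S1pr1 lay between -1.67 and -0.27 and Itgae between -2.03 and -0.85. Each of these calls fell short of 2-fold under some settings, as did those of Lef1 in CD8 and other T cells. The cause of each move was not tested. Shares of cells with a UMI depend on depth: without thinning, 58 of 120 lay above the interval of the reported share. Cell number limits Treg and γδ T cells most, with 15 and 13 CD169-DTR cells.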

Other observations

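Genes induced by interferon were higher in WT in most lymphocyte classes. Of 12 such genes, 9 of 12 compared were called in CD8 T cells, 6 of 11 in conventional CD4, 10 of 11 in γδ, 7 of 11 in other T and 10 of 12 in NK cells, all higher in WT, with median log2 ratios of 1.21, 1.13, 1.97, 1.13 and 1.30. In Treg cells 0 of 11 were called, with a median of 0.43, and the difference between classes was not tested. Rsad2, the antiviral enzyme viperin, was at 183 CPM in WT and 20.8 CPM in CD169-DTR NK cells (log2 ratio 3.14, 2.32 to 4.11) and had 34 and 1 UMIs in γδ T cells. Isg15, a ubiquitin-like modifier, was at 1174 and 149 CPM in γδ T cells (2.98) and Usp18, which removes it, had a log2 ratio of 3.00 there.

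Genes of dividing cells were called higher in WT for 8 of 9 compared in CD8 T cells (median log2 ratio 1.73) and for 9 of 10 in Treg cells. Birc5, an inhibitor of cell death active in mitosis, had 71 UMIs in 13 WT and 3 UMIs in 3 CD169-DTR CD8 T cells (3.55). In Treg cells it had 180 and 0 UMIs, at least 8.46-fold higher in WT, and the 180 UMIs lay in 13 of 54 cells. Cdk1 and Rrm2, with 103 and 96 UMIs in 14 and 13 WT Treg cells and 0 in CD169-DTR, were at least 4.84-fold and 4.51-fold higher in WT. These folds count UMIs, and many UMIs came from few cells. The dividing subcluster held 9 of 54 WT (7.92% to 29.3%) and 0 of 15 CD169-DTR Treg cells (0% to 21.8%), intervals that overlapped. Higher in CD169-DTR Treg cells were Klrg1 (75 and 37 UMIs, -1.81), Nr4a2 (21 and 10 UMIs, -1.76) and Hilpda (47 and 20 UMIs, -1.59). A single CD169-DTR cell held 19 of the 37 Klrg1 UMIs, 1 held 4 of the 10 Nr4a2 UMIs and 1 held 15 of the 20 Hilpda UMIs. The 6 Treg genes used as a check had 2 calls, both higher in WT.

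In CD8 T cells Tnfrsf4, the costimulatory receptor OX40, had 38 UMIs in WT and 0 in CD169-DTR, at least 6.27-fold higher. The 38 UMIs lay in 6 of 165 WT cells, with 16 in 1 cell. Ms4a7, a macrophage gene, had 58 and 2 UMIs (3.84), of which 40 came from 1 WT cell. In conventional CD4 T cells Ier3 (83 and 5 UMIs, 3.08) and Ccr2, a receptor for monocyte chemokines (61 and 7 UMIs, 2.15), were higher in WT. In other T cells the cell cycle gene Stmn1 (170 and 13 UMIs) and the microglia gene Siglech (2.34) were higher in WT, Ms4a7 had 30 and 0 UMIs (at least 4.31-fold higher in WT), and Dapl1 (-1.67) and Hilpda (-1.61) were higher in CD169-DTR. In Stmn1 96 of 170 WT UMIs, and in Hilpda 53 of 70 CD169-DTR UMIs, came from 1 cell.

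In γδ T cells Hilpda (-2.03), Nr4a3 (-1.50) and Pdcd1, the gene of PD-1 (37 and 24 UMIs, -1.02), were higher in CD169-DTR. Of their CD169-DTR UMIs, 9 of 17, 10 of 19 and 6 of 24 came from 1 cell. In NK cells Id3, an inhibitor of E proteins, was at 21.5 and 79.6 CPM (-1.89), with 22 of its 46 CD169-DTR UMIs in 1 cell. Thbs1 and Ms4a7, both on the macrophage list, had 64 and 38 UMIs in WT NK cells and 0 in CD169-DTR, at least 6.02-fold and 3.57-fold higher in WT. Genes of type 1 innate lymphoid cells had 1 of 6 called in NK cells, higher in CD169-DTR, with a median log2 ratio of -0.18.

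Among cells that are not T or NK cells, Cd69 was at 665 CPM in WT and 442 CPM in CD169-DTR plasmacytoid dendritic cells and at 535 and 515 CPM in mast cells and basophils. B cells went the other way, with Cd69 at 289 and 439 CPM, S1pr1 at 63.3 and 177 CPM and Klf2 at 2060 and 2915 CPM. Igfbp4 was at 21.1 and 27.8 CPM in microglia, at 127 and 104 CPM in the clusters without a cell type name, and at 150 and 64.3 CPM in endothelial cells.

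Over 19 points, each the level of a lymphocyte or myeloid class in 1 library, the genes most like each member were computed among 10276 genes. The points share libraries and classes, so the correlations are descriptions. Gm2682 (Pearson r = 0.970) and Cxcr6 (0.965) were among the genes most like Tcf7, and Lef1 was most like Fam189b (0.961) and Tcf7 (0.960). Tbx21 was most like Txk (0.978), Nlrc3 (0.972) and Nkg7 (0.971), Eomes most like Samd3 (0.978), Arl4d (0.965) and Klrc1 (0.954), and Tox most like Zap70 (0.987), Cd247 (0.985) and Skap1 (0.984). The best matches were weaker for the widespread genes: S1pr1 was most like Traf3ip3 (0.914), Entpd5 (0.911) and Brd9 (0.910), Il7r like Tasp1 (0.861), Washc3 (0.855) and 1110012L19Rik (0.843), Klf2 like Zfp942 (0.872), Herc4 (0.861) and Mau2 (0.855), Cd69 like Fcho1 (0.925), Cdc42se2 (0.918) and Phf6 (0.912), and Itgae like Plet1 (0.829), Tbc1d4 (0.809) and Zbtb46 (0.798).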
